A study of Homo sapiens with 6 samples.

Results

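Messenger RNA of 2 families of folding machines was followed in HepG2, an established line grown from a human liver tumour whose cells still make many hepatocyte products. The genes are the 8 subunits of the cytosolic chaperonin TRiC, also called CCT (TCP1, CCT2, CCT3, CCT4, CCT5, CCT6A, CCT7 and CCT8), and the mitochondrial pair HSPD1 and HSPE1, which encode HSP60 and HSP10. These 10 genes were taken by symbol from the 52408 genes of the count table, and all 10 were among the 15648 genes with enough reads to be tested. Treated cells were cultured with ellagic acid (EA), a polyphenol of berries and nuts, at 50 µM, and control cells with its solvent DMSO alone in equal volume, both over 24 h. Each group had 3 libraries, and all 6 came from this single line, which is of tumour origin. Nothing in the labels says that the libraries of a group came from separate cultures, so the p-values cover only how far these samples vary, which could be technical variation alone.

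Chaperonins are barrel-shaped complexes that close around an unfolded protein and use ATP to let it fold inside. TRiC is a double ring in the cytosol in which each ring holds 1 copy of each of 8 related subunits, and actin and tubulin are its best known substrates. In the mitochondrial matrix, rings built only of HSP60 work with HSP10, a small protein that caps the barrel, to fold imported proteins. Both systems are abundant in dividing and in metabolically active cells such as those of the liver.

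The EA libraries were shallower, with 15738089 to 19202292 reads assigned to genes against 22987425 to 25973621 in DMSO, and levels are therefore given as CPM, reads scaled to a fixed library total after TMM scaling of library size. Such levels are relative to the other genes of a library, and less of a transcript in each cell cannot be told apart from fewer cells that carry it. All 10 hepatocyte markers on a list of defining genes had reads in every group, and their summed level ran from 51330 to 54223 CPM with DMSO and from 13530 to 14077 with EA. APOB made up most of the DMSO sum, at 28493 to 30654 CPM against 2504 to 3847 with EA. HNF4A was at 266 to 281 CPM and 168 to 200 CPM, and APOA1, at 1002 to 1143 and 1124 to 1655, was not lower. Sums of 6 fibroblast, 4 endothelial and 5 blood cell markers stayed at or below 17.6 CPM in every library. COL1A2, DCN, PTPRC and CD3E were at 0 reads throughout. The fibroblast list summed to 16.5 to 17.6 CPM with DMSO and 4.87 to 7.03 with EA, nearly all of it PDGFRB, and the endothelial list to 2.32 to 2.44 and 3.34 to 4.42. The blood list summed to 2.08 to 2.45 CPM with DMSO and 9.48 to 14.4 with EA, where CD79A held most (0.354 to 0.652 and 7.47 to 12.4) and CD14 was lower with EA (1.44 to 1.91 and 0.0622 to 0.476). The part of these differences in the results below was not tested.

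All 10 chaperonin genes were lower with EA. By edgeR's quasi-likelihood test, adjusted over all tested genes by the Benjamini-Hochberg method, each of the 10 passed an adjusted p of 0.05, with adjusted p from 6.34e-13 to 0.000367. In this comparison 81.0% of all tested genes passed in either direction, made up of 40.5% lower and 40.5% higher genes. The 10 genes were thus all on the side taken by 40.5% of the tested genes. In all 10 the highest EA library lay below the lowest DMSO library, which held for 41.5% of tested genes. Their median log2 fold change was -0.98, against 0.00 for all tested genes, and their values ran from -2.49 for HSPE1 to -0.32 for CCT8. Together the 10 genes took 0.567% to 0.605% of all reads with DMSO and 0.272% to 0.293% with EA.

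**Figure D1:**
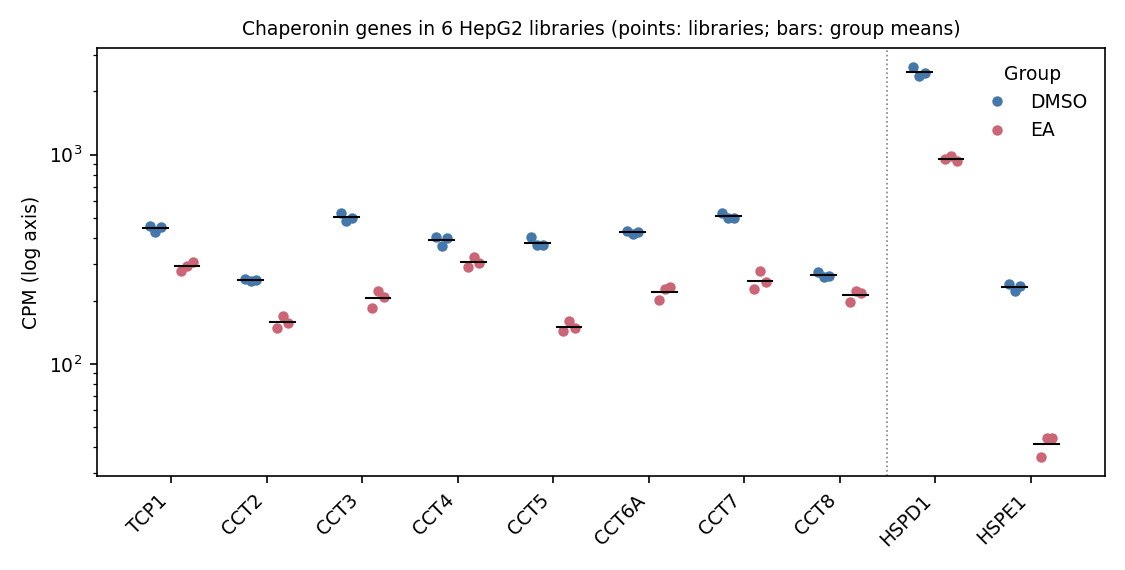
Level of each chaperonin gene in CPM on a log axis, with 1 point for each of the 3 DMSO and 3 EA libraries and a bar at each group mean; the dotted line parts TRiC from the mitochondrial pair. The EA points lie below the DMSO points for all 10 genes, with the widest gap for HSPE1 (234 against 41.6 CPM) and the narrowest for CCT8 (267 against 213).

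The 8 TRiC subunits fell by unequal amounts, with a median log2 fold change of -0.81 and a range from -1.33 to -0.32. The steepest fall was that of CCT5, the epsilon subunit. It stood at 403, 368 and 368 CPM in DMSO replicates 1 to 3 and at 143, 161 and 148 CPM in EA replicates 1 to 3. Every EA library was thus far under every DMSO library, and the log2 fold change was -1.33 (SE 0.07, adjusted p = 1.03e-10 in edgeR's test). CCT3, the gamma subunit, followed closely, from 525, 482 and 495 CPM with DMSO to 185, 224 and 209 with EA. Its log2 fold change was -1.28 (SE 0.08), which left 41.2% of the DMSO level. Which of CCT5 and CCT3 fell more was not resolved. The log2 ratio of CCT3 to CCT5 reads was 0.38 to 0.43 with DMSO and 0.38 to 0.50 with EA, and these ranges overlap. The difference of 0.05 had an exact two-sided permutation p of 0.4. With 3 libraries against 3 that test cannot go below 0.1, so it cannot show that the falls were equal.

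A middle pair consisted of CCT7 and CCT6A, the eta and zeta subunits. CCT7 was read at 523, 500 and 496 CPM with DMSO and at 227, 277 and 246 CPM with EA. CCT6A went from 430, 419 and 428 CPM to 201, 227 and 232. Their log2 fold changes of -1.02 (SE 0.08) and -0.95 (SE 0.07) correspond to 49.4% and 51.7% of the DMSO level. In both genes the 3 DMSO libraries lay close together and the EA libraries were more spread, with coefficients of variation of 2.96% and 10.2% for CCT7 and 1.34% and 7.37% for CCT6A.

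TCP1, the alpha subunit that gave the complex its first name, and CCT2, the beta subunit, fell less. TCP1 measured 454, 428 and 451 CPM in the DMSO libraries and 279, 295 and 307 with EA (log2 fold change -0.60, SE 0.06). For CCT2 the values were 255, 248 and 252 CPM against 149, 169 and 156 (log2 fold change -0.67, SE 0.07). The groups did not overlap in either gene. EA left 66.1% of the TCP1 level and 62.8% of the CCT2 level.

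The smallest falls were those of CCT4, the delta subunit and a contact point for actin inside the chamber, and CCT8, the theta subunit. CCT4 was read at 403, 366 and 400 CPM with DMSO and at 290, 324 and 302 CPM with EA. CCT8 was read at 276, 261 and 264 CPM with DMSO and at 198, 224 and 219 CPM with EA. The log2 fold changes were -0.35 (SE 0.07, adjusted p = 0.000211) for CCT4 and -0.32 (SE 0.07, adjusted p = 0.000367) for CCT8 in edgeR's quasi-likelihood test. When a fold of more than 1.2 was asked for, CCT8 no longer passed (adjusted p = 0.0917 in edgeR's glmTreat) and CCT4 stood at an adjusted p of 0.048, whereas the other 8 genes passed.

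**Figure D2:**
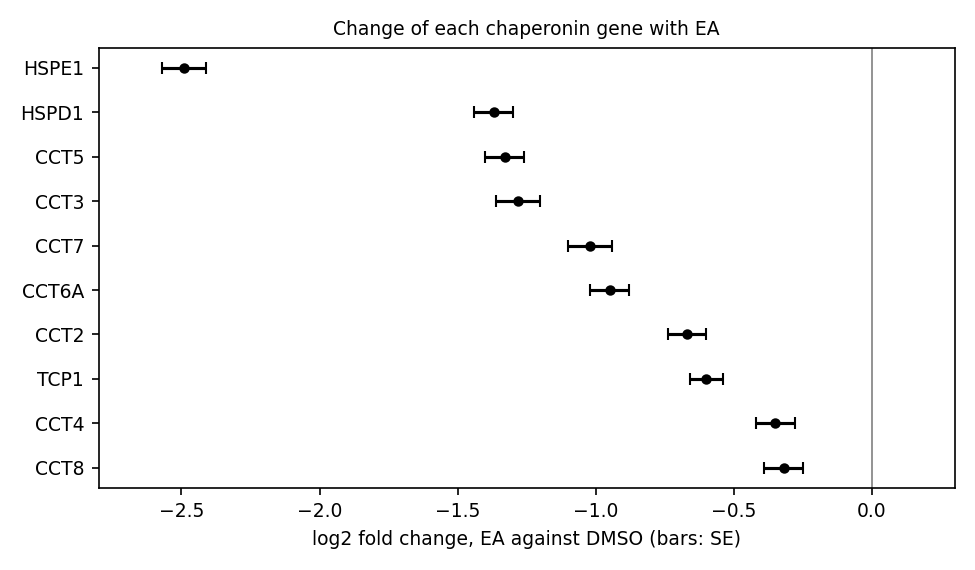
Log2 fold change of each gene, EA against DMSO, with its SE as a bar and 0 as a grey line, ordered from the smallest to the largest fall. CCT8 and CCT4 lie nearest to 0, CCT5, CCT3 and HSPD1 between -1.28 and -1.37, and HSPE1 apart at -2.49.

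When the 10 genes were ordered by their fold change, neighbours were compared by the ratio of their reads within each library, a measure that needs no scaling. In 4 of the 9 neighbouring pairs the ratio did not overlap between EA and DMSO: HSPE1 and HSPD1, CCT3 and CCT7, CCT6A and CCT2, and TCP1 and CCT4. In the other 5 pairs it overlapped, so the order within HSPD1, CCT5 and CCT3, within CCT7 and CCT6A, within CCT2 and TCP1 and within CCT4 and CCT8 is not resolved beyond the spread between libraries. The exact two-sided permutation p was 0.1 for each of the 4 pairs and 0.3 to 0.5 for the others. A p of 0.1 is the smallest that 3 libraries against 3 can give. The pairs were formed by sorting on fold changes from these same libraries, which set the direction of each difference. The p-values therefore only describe the spread. How often such ratios fail to overlap in other pairs of genes was not measured. Of all tested genes, 81.0% were called changed in edgeR's test.

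TRiC needs its subunits in equal numbers, and the unequal falls shifted the make-up of its transcripts. Of all reads on the 8 subunit genes, CCT4 held 12.3%, 11.9% and 12.7% with DMSO and 17.4%, 17.0% and 16.6% with EA. CCT8 rose from 8.44% ± 0.0709 to 11.9% ± 0.138 of these reads (mean ± SD, n = 3 libraries per group, also below), TCP1 from 14.1% ± 0.233 to 16.4% ± 0.728 and CCT2 from 7.95% ± 0.146 to 8.79% ± 0.182. The shares of the other 4 were smaller with EA. CCT3 went from 15.8% ± 0.205 to 11.5% ± 0.366, CCT5 from 12.0% ± 0.340 to 8.38% ± 0.226, CCT7 from 16.0% ± 0.274 to 13.9% ± 0.598 and CCT6A from 13.5% ± 0.264 to 12.2% ± 0.437. In none of the 8 did the shares of the groups overlap, and each had an exact two-sided permutation p of 0.1 (0.1 after adjustment over the 8), the smallest possible here. Since shares add up to the whole, a gain in some requires a loss in others, and the 8 are not separate observations. How often shares within other sets of genes fail to overlap was not measured. Of all tested genes, 81.0% were called changed in edgeR's test. Per read of CCT5 there were 1.03 ± 0.0528 reads of CCT4 with DMSO and 2.03 ± 0.0201 with EA. This pair was named because it showed a large shift, so its values are given with no test.

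**Figure D3:**
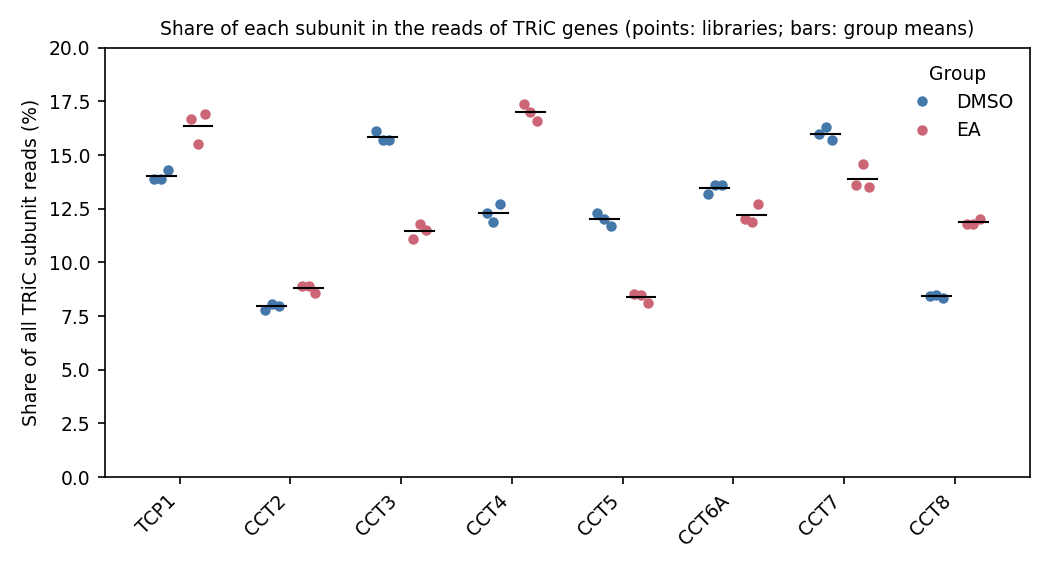
Share of each subunit in the summed reads of the 8 TRiC genes, in percent, with 1 point for each of the 3 libraries per group and a bar at the mean. CCT4, CCT8, TCP1 and CCT2 sit higher with EA and CCT3, CCT5, CCT7 and CCT6A lower, with CCT4 moving from 12.3% to 17.0% and CCT3 from 15.8% to 11.5%.

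Levels of different genes were compared per kilobase of the principal transcript (GENCODE 29). On this scale of CPM per kb, HSPD1 was highest with DMSO at 1010 ± 48.8 and CCT7 next at 264 ± 7.81, followed by HSPE1 at 246 ± 9.45 and CCT3 at 233 ± 10.2. Below them came TCP1 (178 ± 5.65), CCT6A (156 ± 2.09), CCT4 (155 ± 8.14), CCT8 (133 ± 4.04), CCT2 (123 ± 1.63) and CCT5 (103 ± 5.61). Among neighbours in this order, HSPE1 overlapped CCT3 and CCT6A overlapped CCT4. With EA, HSPD1 was still highest at 390 ± 11.0 CPM per kb, whereas HSPE1 was 9th of 10 at 43.8 ± 5.08, overlapping CCT5, the lowest, at 41.0 ± 2.62. CCT7 (131 ± 13.3), CCT4 (121 ± 6.73) and TCP1 (118 ± 5.65) came after HSPD1, and each overlapped its neighbour among these 3. CCT8 (106 ± 6.81) overlapped CCT3 (95.9 ± 9.19), and CCT6A (80.9 ± 5.96) overlapped CCT2 (77.4 ± 4.90). The highest TRiC subunit was 2.49 to 2.61 times the lowest with DMSO and 3.05 to 3.30 times with EA. These level orders rest on the transcript chosen: over the union of all annotated exons CCT4 ranked 3rd instead of 7th with DMSO, and the highest subunit was on average 2.44 and 4.18 times the lowest with DMSO and EA.

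The mitochondrial pair fell unequally, with a difference of 1.12 in the log2 ratio of their reads between EA and DMSO. Neighbouring TRiC subunits in the order of falls lie close together because they were sorted by fall, so they are no yardstick for this gap. Between CCT5 and CCT8, the subunits with the largest and the smallest fall, the log2 ratio differed by 1.01. Whether the mitochondrial pair differs from TRiC in this respect was not tested. HSPD1, the barrel protein HSP60, had the highest level per kb of the 10 genes in both groups. Its levels were 2611, 2376 and 2453 CPM in the DMSO libraries and 953, 986 and 932 CPM with EA. By number of reads it ranked 13th or 14th of all genes with DMSO and between 77th and 87th with EA. The log2 fold change was -1.37 (SE 0.07, adjusted p = 5.3e-11 in edgeR's quasi-likelihood test), close to those of CCT5 and CCT3.

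HSPE1, the cap protein HSP10, showed the largest fall of the 10. It was read at 242, 224 and 235 CPM with DMSO and at 36.0, 44.3 and 44.5 CPM with EA, where replicate 1 was the lowest. EA left 17.8% of the DMSO level, a log2 fold change of -2.49 (SE 0.08, adjusted p = 6.34e-13 in edgeR's test). Of all tested genes, 4.15% had a lower log2 fold change than HSPE1, compared with 14.0% for HSPD1, 14.7% for CCT5 and 39.9% for CCT8. For each read of HSPE1 there were 10.8, 10.6 and 10.4 reads of HSPD1 in the DMSO libraries and 26.5, 22.3 and 21.0 with EA. The groups did not overlap, and the log2 ratio differed by 1.12 (exact two-sided permutation p = 0.1, the smallest that 3 against 3 allows).

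**Figure D4:**
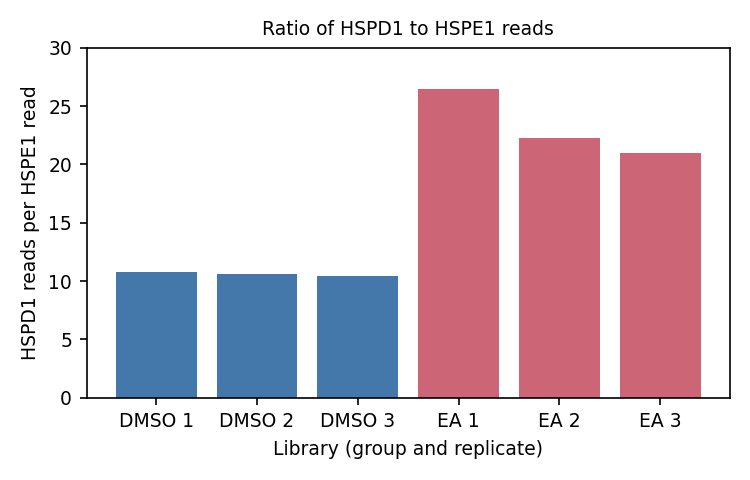
Reads of HSPD1 per read of HSPE1 in each library, as bars from 0, with DMSO in blue and EA in red. The DMSO libraries lie between 10.4 and 10.8 and the EA libraries between 21.0 and 26.5.

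HSPD1 and HSPE1 lie head to head on chromosome 2 and are transcribed away from each other from a shared region, so short stretches of their promoters are shown, together with those of TRiC promoters that matched the same search. RefSeq windows from 250 bases before to 50 after a transcription start (GRCh38.p14) were found for 9 of the 10 genes, 12 windows in all; CCT6A had no entry. They were searched on both strands for the heat shock element, the site of the stress factor HSF1, as GAANNTTC or TTCNNGAA, which can share letters when GAA and TTC units alternate, and for the E-box CACGTG, a site of MYC and related factors. Each stretch of 30 bases below reads 5′ to 3′ on the strand of its gene, and capitals mark the match. The E-box is a single site in the region between the pair, read once from each gene, and lies 22 to 17 bases before the HSPE1 start and 88 to 83 before the HSPD1 start that is nearer to HSPE1.
HSPE1 E-box, chr2:197500345-197500374, plus strand: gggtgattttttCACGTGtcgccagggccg
HSPD1 E-box, chr2:197500345-197500374, minus strand: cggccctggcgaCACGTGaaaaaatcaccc
HSPD1 heat shock element, chr2:197500061-197500090, minus strand: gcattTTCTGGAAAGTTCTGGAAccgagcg
TCP1 heat shock element, chr6:159789815-159789844, minus strand: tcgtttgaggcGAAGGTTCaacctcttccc
CCT2 heat shock element, chr12:69585789-69585818, plus strand: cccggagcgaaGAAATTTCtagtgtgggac
CCT4 heat shock element, chr2:61888607-61888636, minus strand: cccgacgccggcgccgctTTCTGGAAggtt

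HSPD1 thus carried 4 alternating TTC and GAA units in a row, 245 to 228 bases before its other start. This run lies downstream of the HSPD1 start nearer to HSPE1, and so outside the stretch between that start and HSPE1. Such a run was found in 12 of 35116 promoter windows of the same length (0.0342%). Single heat shock elements are common letters by comparison. One of either form was in 13.5% of all windows, and in windows of HSPD1, TCP1, CCT2 and CCT4 among the 9 genes. The CCT4 match ended 45 bases after the start, close to the end of its window, so that window could not show a longer run. COMMD1, whose exons share 81 bases with those of CCT4 on the opposite strand, held a run of 4 units in its own window. Whether that run includes the CCT4 match was not tested, so a run of 4 units at CCT4 is not excluded. The E-box was in 7.26% of all windows, and among these genes in those of HSPD1 and HSPE1. HSPD1, TCP1, CCT2 and CCT4, whose windows held a heat shock element, had log2 fold changes of -1.37, -0.60, -0.67 and -0.35. HSPE1, CCT3, CCT5, CCT7 and CCT8, whose windows did not, had -2.49, -1.28, -1.33, -1.02 and -0.32. Of the 12 gene symbols with the run of 4 units, 4 were tested. Besides HSPD1 these were CHORDC1 (-0.13, SE 0.07), COMMD1 (-0.84, SE 0.11) and TMEM95 (7.30, SE 0.94). A link between element and fold change was not tested. A match describes letters, and binding of a factor was not measured.

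Near-identical copies of these genes can take or lose reads, and the sources used here do not say how reads that fit several places were counted. The table listed 56 pseudogenes of the 10 genes, of which 30 had at least 1 read. Their summed reads amounted to at most 0.465% of the parent's in any library for TCP1, CCT2, CCT3, CCT4, CCT5 and CCT7. They reached 1.80% for HSPD1, 3.25% for CCT8, 4.15% for HSPE1 and 8.25% for CCT6A. Summing HSPD1 and HSPE1 with their copies and with the readthrough transcript HSPE1-MOB4, which had 4 to 10 reads per library, changed the difference in their log2 ratio from 1.12 to 1.10. By GENCODE 29, HSPE1-MOB4 shares 9.71% of the exon length of HSPE1 on the same strand. Any reads that the counting left out as ambiguous are missing from this sum, so it cannot show their part in the ratio. Without strand information, reads over exons shared with a gene on the other strand cannot be assigned with certainty. By GENCODE 29 such exons made up 30.1% of the exon length of CCT5, 14.2% of that of HSPE1 and 6.62% of that of HSPD1, which overlap each other, and 8.05% of that of TCP1, where the other gene is ACAT2. For CCT4 they made up 9.72% with AC107081.2 and 2.86% with COMMD1. The shift between CCT4 and CCT5 reads rests on genes with such overlaps.

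Genes that work with TRiC or HSP60 were described in 10 lists of 83 genes, of which 82 were matched and 76 tested. Across the lists 48 genes were lower, 17 higher and 11 not called in edgeR's test (40.5% of all tested genes were lower and 40.5% higher). Prefoldin, which captures unfolded actin and tubulin and passes them to TRiC, had all 6 subunits lower, with a median log2 fold change of -0.49 beside -0.81 for the TRiC subunits. PFDN6 and PFDN5 fell from 29.6 ± 2.10 to 12.4 ± 1.11 CPM and from 84.2 ± 5.33 to 40.6 ± 2.83 CPM (log2 fold changes -1.25 and -1.05). VBP1 (-0.59), PFDN4 (-0.38), PFDN1 (-0.22) and PFDN2 (-0.18, adjusted p = 0.0465 in edgeR's test) fell less, and in PFDN2 the groups overlapped. The calls of PFDN1 and PFDN2 were lost with RLE scaling (adjusted p = 0.0646 and 0.0931 in edgeR's test), with a filter of 1 CPM in 3 libraries, and without DMSO replicate 1 (0.0809 and 0.0767) or EA replicate 1 (0.149 and 0.118), which left 4 of 6. That of PFDN2 was also lost without DMSO replicate 2 (0.104), with upper-quartile or library-size scaling (0.0542 and 0.0551) and after thinning to equal depth (0.0808). Neither passed when a fold of more than 1.2 was asked for (0.476 and 0.663 in edgeR's glmTreat).

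Among the phosducin-like proteins, which bind TRiC with its substrate, PDCL3 (-0.64, SE 0.11) and TXNDC9 (-0.38, SE 0.09) fell, PDCL stood at -0.04 (SE 0.09) and was not called, and PDCL2 had 0 reads. Genes with a chaperonin fold outside the ring were split. MKKS (-0.53, SE 0.09) and BBS12 (-0.67, SE 0.27) fell, while BBS10 rose from 14.7 ± 1.12 to 21.4 ± 2.26 CPM (0.54, SE 0.11); these 3 act with TRiC in assembling the BBSome of cilia. The call of BBS12, at 1.60 ± 0.257 and 1.01 ± 0.226 CPM, was made at an adjusted p of 0.033 in edgeR's test and was lost with DESeq2 (0.127) and without DMSO replicate 1 or 3 or EA replicate 2 or 3 (0.068 to 0.0986). With a fold of more than 1.2 asked for, the calls of BBS12 (0.0635) and TXNDC9 (0.0539) were lost in edgeR's glmTreat. The paralog CCT6B had only 17 reads in DMSO and 13 in EA, summed over libraries, and CCT8L2 had 0, so both were below the filter.

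Of 14 tested actin and tubulin genes, 10 were lower, 3 higher and 1 not called, with a median log2 fold change of -1.05. The tubulins TUBA1A (-3.19, SE 0.13), TUBA1B (-2.73, SE 0.08), TUBG1 (-1.90, SE 0.08), TUBB4B (-1.87, SE 0.08) and TUBB (-1.72, SE 0.07) all fell more steeply than any TRiC subunit. TUBB went from 1631 ± 64.9 to 494 ± 38.0 CPM. TUBB6 rose (0.53, SE 0.10) and TUBB3 was not called (0.13, SE 0.10). The cytoplasmic actins went opposite ways. ACTB fell from 2521 ± 119 to 1918 ± 202 CPM (log2 fold change -0.39), and ACTG1 rose from 3483 ± 161 to 5899 ± 967 CPM (0.76). ACTA2, smooth muscle actin, rose by 0.81 on the log2 scale (SE 0.07). Actin and tubulin genes have close relatives, so reads may be split among copies.

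Tubulin folding cofactors, which take tubulin on after TRiC, were lower in 5 of 5 tested cases with a median log2 fold change of -1.63. They ran from -1.76 (SE 0.08) for TBCB and -1.65 for ARL2 through -1.63 for TBCD to -0.49 for TBCC and -0.35 for TBCA. Of 12 other TRiC substrates 7 were lower, 2 higher and 3 not called, with a median of -0.33. The cyclin gene CCNE1 (-1.02, SE 0.11) and the mitotic activator CDC20 (-0.87, SE 0.19) had the largest falls, the tumour suppressor VHL had a smaller fall (-0.24, SE 0.07), and GNB5 (0.36, SE 0.08) and HDAC3 (0.29, SE 0.07) rose. Without EA replicate 3 the 3 uncalled genes were called, FZR1 and PPP4C lower (both -0.19) and WRAP53 higher (0.27), at adjusted p of 0.00977, 0.00232 and 0.00458 in edgeR's test. With no filter FZR1 (-0.23) and PPP4C (-0.25) were also called lower, at adjusted p of 0.0159 and 0.00342 in edgeR's test. In that setting the call of HDAC3 was lost (0.16, adjusted p = 0.117 in edgeR's test). When a fold of more than 1.2 was asked for, edgeR's glmTreat no longer called TBCA (adjusted p = 0.0514), VHL (0.4), GNB5 (0.058) or HDAC3 (0.198), so neither of the higher substrates passed.

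**Figure D5:**
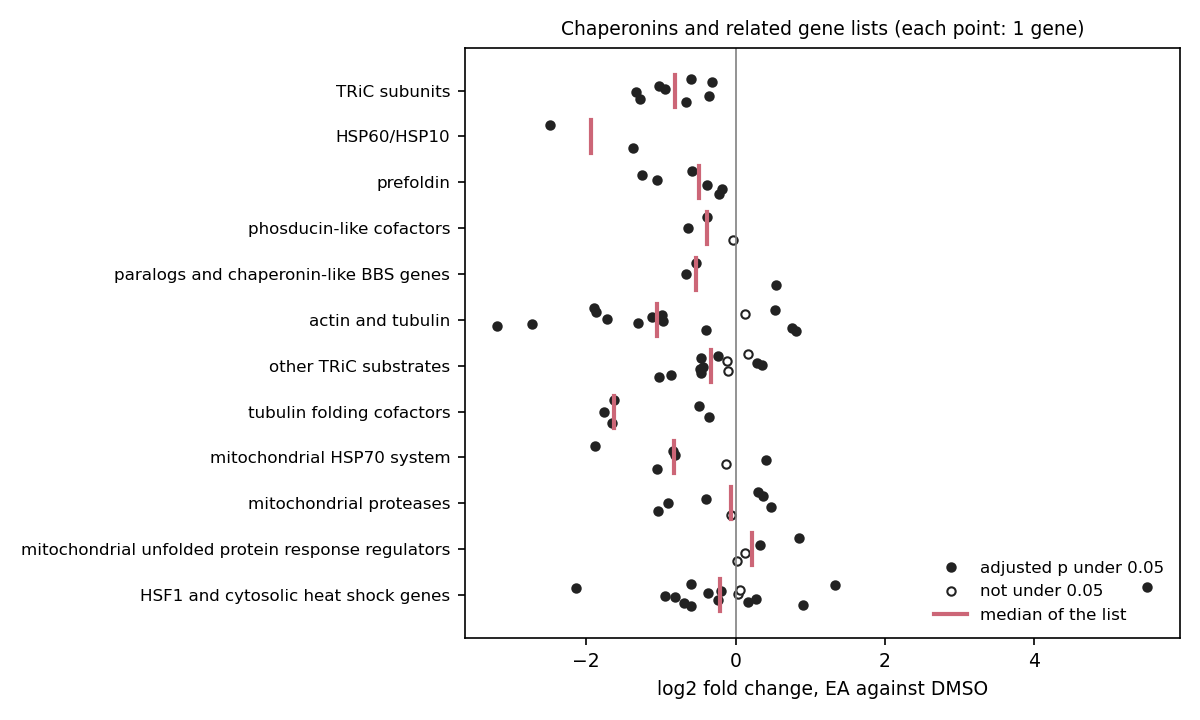
Log2 fold change of each tested gene, EA against DMSO, in the 2 chaperonin groups and the 10 related lists; filled points have an adjusted p under 0.05, open points do not, and red bars are list medians. Both chaperonin groups, prefoldin and the tubulin folding cofactors lie wholly below 0, while the heat shock list runs from -2.13 to 5.51.

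Inside mitochondria, the partners of HSP60 moved in both directions, as did all tested genes (40.5% lower and 40.5% higher). HSP70 of the matrix, HSPA9, which receives proteins before HSP60 does, fell from 628 ± 22.8 to 352 ± 26.1 CPM (log2 fold change -0.84). The HSP90 of the matrix, TRAP1, fell from 148 ± 4.97 to 40.1 ± 2.52 (-1.88), and the J-domain proteins DNAJA3 (-1.05) and HSCB (-0.81) were lower as well. Of the nucleotide exchange factors, GRPEL1 was not called (-0.13, SE 0.08) and GRPEL2 rose (0.41, SE 0.08). This made 4 lower, 1 higher and 1 not called of 6. The proteases that clear misfolded matrix and inner membrane proteins gave 3 lower, 3 higher and 1 not called of 7, with a median of -0.06. The protease subunit CLPP fell (-1.04, SE 0.09) while its ATPase partner CLPX rose (0.47, SE 0.07). HTRA2 (-0.91) and LONP1 (-0.40) fell, SPG7 (0.37) and YME1L1 (0.30) rose, and AFG3L2 stood at -0.06 and was called lower only with no filter (-0.19, adjusted p = 0.0299 in edgeR's test). Among regulators linked to the mitochondrial unfolded protein response, which is known to raise HSPD1 and HSPE1, DDIT3 rose from 25.0 ± 2.73 to 45.2 ± 4.12 CPM (0.85, SE 0.10) and CEBPB rose less (0.32, SE 0.11), with ATF5 (0.13) and ATF4 (0.02) not called. The call of CEBPB was lost without DMSO replicate 1 (adjusted p = 0.0981 in edgeR's test) or DMSO replicate 3 (0.0846), which left DDIT3 as 1 of 4 higher. ATF5 was called higher without EA replicate 3 (0.16, adjusted p = 0.0442 in edgeR's test), and GRPEL1 was called lower without EA replicate 2 (-0.21, 0.0262) and with no filter (-0.26, 0.00372). Calls gained without EA replicate 3 or with no filter carry the limit given above for these settings. With a fold of more than 1.2 asked for, CEBPB (0.161) and YME1L1 (0.145) were not called in edgeR's glmTreat.

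Cytosolic heat shock genes, many of them targets of HSF1 as HSPD1 and HSPE1 are, did not share one direction. Of 16 tested, 9 were lower, 5 higher and 2 not called, with a median log2 fold change of -0.22. All tested genes were also split, with 40.5% lower and 40.5% higher. HSP90AB1 went from 2840 ± 47.0 to 1466 ± 117 CPM (-0.95) and HSP90AA1 from 1927 ± 66.9 to 1099 ± 114 (-0.81). Of the HSPA genes on this list, which belong to the HSP70 family, HSPA8 (0.06, SE 0.12) and HSPA1A (0.03, SE 0.09) were not called. HSPA1B (-0.37, SE 0.09) and HSPA4 (-0.20, SE 0.07) were lower. The small heat shock gene HSPB1 had the largest fall (-2.13, SE 0.15). Its relative HSPB8, which works with BAG3 in selective autophagy, rose from 2.85 ± 0.0616 to 130 ± 28.4 CPM (5.51, SE 0.18), BAG3 itself rose by 0.90 (SE 0.07), and HSPH1, an exchange factor of HSP70, rose from 249 ± 16.0 to 627 ± 27.6 CPM (1.33, SE 0.07). HSF1 fell by 0.23 on the log2 scale (SE 0.07). HSF2 (0.27) and the J-domain gene DNAJB1 (0.17) were the other higher genes, and both calls were lost with DESeq2, with no filter, and without DMSO replicate 2, DMSO replicate 3 or EA replicate 2 (adjusted p from 0.0746 to 0.192 in edgeR's test without these libraries), which left 3 of 16 higher. The call of DNAJB1 was also lost without DMSO replicate 1 (0.129). Among the lower genes, that of HSPA4 was lost without EA replicate 1 (-0.16, adjusted p = 0.0536 in edgeR's test). When a fold of more than 1.2 was asked for, HSF1 (0.444), HSPA1B (0.06), HSPA4 (0.622), HSF2 (0.292) and DNAJB1 (0.772) were not called in edgeR's glmTreat.

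The protein-coding genes whose profile over the 6 libraries was most like the mean profile of the 8 TRiC subunits, by Euclidean distance of centred log2 CPM, were CCNH (distance 0.0421), PPP1R7 (0.0544), NEDD9 (0.0562), LAPTM4B (0.0598) and MRPS9 (0.0600). Their log2 fold changes lay between -0.84 and -0.78. The TRiC subunits themselves stood at distances of 0.186 (CCT2) to 0.637 (CCT5) from their own mean, and HSPD1 and HSPE1 at 0.691 and 2.06. Of 12671 protein-coding genes outside the 10, 2804 were no farther from that mean than CCT5.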

How the data were processed

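The authors deposited unnormalised counts of reads for each gene in 6 libraries. HTSeq 0.6.1 and HISAT are listed with the hg19 build in the submitters' processing notes, beside cutadapt 1.9.1 for trimming. The sources used here do not give the annotation release, the strand setting or the treatment of multiply placed reads. Columns were matched to samples by name. Genes were filtered with filterByExpr, scaled by TMM and tested, EA against DMSO, by the robust quasi-likelihood test of edgeR 4.0.16 in R 4.3.3, with Benjamini-Hochberg adjustment over all genes tested; the SE is the size of the log2 fold change over the square root of F. A call is an adjusted p under 0.05. Total reads ran from 15738089 to 25973621, and 3 reads correspond to 0.117 to 0.187 CPM. Ratios within a library were compared by exact permutation. Transcript lengths came from GENCODE 29 and promoters from RefSeq, both on GRCh38, another build than the counts. The 10 genes and the related lists were chosen with earlier results of these data known. Text names all 10 genes, any list member (always the extremes), the 5 nearest profiles, the copies and the tested genes with the 4-unit run. The pair CCT4 and CCT5 and the search motifs were chosen after values were seen. TBCE was not matched and is not analysed here. The test was also run on simulated counts with planted changes, which does not address how cultures were replicated or reads were placed.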

Additional observations from a re-analysis of the deposited data

How the results depend on the processing

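All 10 chaperonin genes kept their direction and an adjusted p under 0.05 with DESeq2 1.42.0, limma-voom (limma 3.58.1), RLE, upper-quartile or library-size scaling, no filter, a filter of 1 CPM in 3 libraries, thinning every library to one depth, setting aside the 20 most read genes, and each library left out in turn. Over these the log2 fold change of HSPE1 ran from -2.62 to -2.41, of HSPD1 from -1.50 to -1.33, of CCT5 from -1.46 to -1.29 and of CCT8 from -0.45 to -0.28, where the largest adjusted p was 0.0024. The lowest of these fold changes all came with no filter, which also gave TCP1 -0.73 instead of -0.60. An adjusted p of 0.01 kept 10 and a minimum fold of 1.2 kept 9. With the replicate number as a block all 10 were called, with a median log2 fold change of -0.99 and 12537 genes called in all. The labels give the replicate numbers no meaning. Deviations of same-numbered libraries from their group means correlated at -0.0839, 0.0273 and -0.0154. No shared deviation was thus seen, but with 3 libraries per group this cannot show whether samples were paired. Higher heat shock genes numbered 3 instead of 5 with DESeq2, with no filter, and without DMSO replicate 2, DMSO replicate 3 or EA replicate 2. The lower chaperonin-like genes numbered 1 instead of 2 with DESeq2 and without DMSO replicate 1, DMSO replicate 3, EA replicate 2 or EA replicate 3, and without a filter 1 instead of 2 other TRiC substrates was higher. The block also ended the call of PFDN2 (adjusted p = 0.0543). Leaving out the 20 most read genes removed ACTB, ACTG1 and HSP90AB1 from the test. Levels per kb by the union of exons were tried after the data were seen.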

Other observations

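Reads were assigned to several pseudogene copies of the chaperonin genes, some of them lower with EA as the parents were and some higher. CCT8P1, a processed copy of CCT8, had 198, 173 and 218 reads with DMSO and 7, 24 and 18 with EA, a log2 fold change of -3.12 (SE 0.24, adjusted p = 7.67e-09 in edgeR's quasi-likelihood test) beside -0.32 for CCT8. HSPE1P2 went from 21, 23 and 23 reads to 0, 3 and 0. HSPD1P1 had 372, 370 and 379 reads with DMSO and 101, 126 and 129 with EA, a fall (SE 0.11, adjusted p = 9.92e-08 in edgeR's test) beside that of HSPD1. By contrast HSPD1P9 rose, from 93, 94 and 125 reads to 127, 110 and 153 in the shallower EA libraries (log2 fold change 0.79, SE 0.17), and HSPD1P10 went from 0, 0 and 1 reads to 15, 12 and 19. The 2 copies of CCT6A with the most reads, CCT6P3 and CCT6P1, were not called (0.15, SE 0.15, and -0.24, SE 0.17). Whether such reads come from the copies or from misplaced reads of the parents was not tested. MOB4, the gene next to HSPE1 on the same strand, fell by 0.32 on the log2 scale (SE 0.13), against a fall of 2.49 for HSPE1.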
